A study of Homo sapiens with 8 samples.

Results

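The 39 interferon-stimulated genes described here are genes whose transcription is switched on by interferon, taken by name from 20162 protein-coding genes. For each gene, the peaks of HA-tagged AML1-ETO and ETO2-GLIS2 were looked up at its start sites, in the gene, and in the 20 kb to either side. ChIP-seq with an anti-HA antibody measured where the fusion proteins sat on DNA in U937, a human monocytic cell line. The 8 libraries of the series were 4 ChIP libraries and 4 inputs, 1 of each for both proteins at 12 and 48 h, and the 4 peak lists come from the ChIP libraries. Both proteins carried an N-terminal HA-tag and were expressed from a doxycycline-inducible retroviral vector, in stable lines that were each 1 single-cell clone (#4 for AML1-ETO and #14 for ETO2-GLIS2). Cells of every group received doxycycline at 5 µg/ml, and the lists hold no uninduced cells and no cells with an empty vector. For the 12 h samples the sample titles give 12 h while a protocol field names 48 h, and the titles were used.

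AML1-ETO joins the DNA-binding Runt domain of AML1 (RUNX1) to ETO, a protein that recruits corepressors. ETO2-GLIS2 joins the related ETO2 to the zinc fingers of GLIS2, which bind G-rich DNA. Type I interferon, bound by its receptor, activates the kinases JAK1 and TYK2, which phosphorylate STAT2. STAT2 and IRF9 belong to the complex ISGF3, which binds the interferon-stimulated response element (ISRE) near the start of its target genes, and the products of those genes block virus entry, copying and translation. Monocytes are among the cells that respond strongly to interferon. The peak lists hold no expression values, so neither the level of these genes nor the identity of the line was checked against RNA.

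All 39 genes were found in the annotation, on 15 chromosomes, and formed 36 loci when genes with starts within 20 kb were joined. They had a median of 9 annotated start sites, against 5 for all protein-coding genes, and a median length of 21.5 kb against 27.2 kb. A gene with more start sites has more chances of a promoter peak. The lists held 70833 peaks for AML1-ETO at 12 h, 105769 at 48 h, 28325 for ETO2-GLIS2 at 12 h and 30096 at 48 h. The length of a list can move with the depth of the library as well as with binding. By the reads per library that the study gives, the later ETO2-GLIS2 library was the shallowest of the ChIP libraries and the later AML1-ETO library the deepest. For each protein the later list was the longer one. The lists hold no read counts, and the part of depth in their length was not tested.

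The DNA at the gene starts is shown first, because the ISRE is what the members share by sequence. The ISRE was searched as GAAANNGAAA on both strands, from 250 bp before to 50 bp after the main start, which is the start of the Ensembl canonical transcript. It was found at 24 of 39 members (61.5%, exact 95% interval 44.6% to 76.6%) and at 3.32% of all protein-coding genes. A match is a description of the letters and not a mapped binding site. In 4 genes (USP18, IFIH1, EIF2AK2 and OAS3) the ISRE also lay within the 200 bp window centred on the AML1-ETO summit at 48 h. The reference sequence (GRCh37, gene strand, 5′ to 3′, capitals mark the ISRE on either strand) is given for 3 of these windows in order of rank, for IFIH1 (chr2:163175332-163175531, minus strand), EIF2AK2 (chr2:37384104-37384192, minus, ended 20 bases after the main start) and OAS3 (chr12:113375962-113376161, plus).
IFIH1: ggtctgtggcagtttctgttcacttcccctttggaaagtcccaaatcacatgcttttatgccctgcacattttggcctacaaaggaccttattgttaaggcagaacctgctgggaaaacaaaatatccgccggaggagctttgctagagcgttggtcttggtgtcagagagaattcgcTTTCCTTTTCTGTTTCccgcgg
EIF2AK2: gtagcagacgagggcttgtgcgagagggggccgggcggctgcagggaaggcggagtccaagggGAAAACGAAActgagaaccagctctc
OAS3: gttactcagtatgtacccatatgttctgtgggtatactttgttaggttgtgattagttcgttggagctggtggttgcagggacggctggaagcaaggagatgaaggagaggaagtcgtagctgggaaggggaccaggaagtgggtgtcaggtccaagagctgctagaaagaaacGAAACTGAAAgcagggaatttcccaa

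Another 7 of the 24 genes with an ISRE at the start had no promoter peak of either protein at either time, beside 36.7% of all protein-coding genes. They were IFIT5, OAS2, GBP1, SAMD9, IFI27, IFI44 and IFI44L. The first of these, IFIT5 (chr10:91174145-91174344, plus strand), is printed from 180 bases before to 20 bases after the main start and holds 3 matches. HERC5 (chr4:89378090-89378289, plus) and ISG15 (chr1:948697-948896, plus) are shown in the same frame, and were chosen after their values were seen, HERC5 as the promoter with AML1-ETO alone that stood highest in its list and ISG15 as the start where ETO2-GLIS2 summits lay closest to an ISRE.
IFIT5: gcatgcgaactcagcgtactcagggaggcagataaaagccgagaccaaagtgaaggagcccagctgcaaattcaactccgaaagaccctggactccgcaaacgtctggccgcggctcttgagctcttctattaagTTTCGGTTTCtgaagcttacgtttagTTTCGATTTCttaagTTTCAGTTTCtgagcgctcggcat
HERC5: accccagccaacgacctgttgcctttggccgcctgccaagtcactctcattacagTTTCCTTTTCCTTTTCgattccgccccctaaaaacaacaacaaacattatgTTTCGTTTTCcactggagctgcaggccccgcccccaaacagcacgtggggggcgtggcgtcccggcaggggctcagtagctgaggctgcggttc
ISG15: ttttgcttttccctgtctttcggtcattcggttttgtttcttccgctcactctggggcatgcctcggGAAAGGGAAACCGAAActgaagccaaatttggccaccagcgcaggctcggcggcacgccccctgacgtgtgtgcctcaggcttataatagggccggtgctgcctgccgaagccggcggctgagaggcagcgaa

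To ask how many of the interferon-stimulated genes were occupied, a gene was counted when a peak summit lay within 1 kb of the start of any of its annotated transcripts, which is called a promoter peak below. AML1-ETO had a promoter peak at 25 of 39 members at 12 h (64.1%, 47.2% to 78.8%), beside 54.0% of all protein-coding genes, and at 29 of 39 at 48 h (74.4%, 57.9% to 87.0%), beside 59.8%. ETO2-GLIS2 had one at 19 members at 12 h (48.7%, 32.4% to 65.2%), beside 42.8%, and at 18 at 48 h (46.2%, 30.1% to 62.8%), beside 45.7%. The background share lay inside the interval of the members in all 4 lists. With 1 library per protein and time no test between proteins or times was possible, and the exact (Clopper-Pearson) intervals cover counting error only, for genes of which several are neighbours.

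With the main start alone, AML1-ETO peaks were at 20 members at 12 h (51.3%, beside 47.7% of all genes) and at 26 at 48 h (66.7%, beside 52.2%). ETO2-GLIS2 peaks were then at 14 members at 12 h (35.9%, beside 37.8%) and at 13 at 48 h (33.3%, beside 40.7%). On that count the members lay below the background for ETO2-GLIS2 at both times, so the direction of the difference turned with the definition of the start. When each list was cut to its 28325 strongest peaks, 20 members at 12 h (51.3%, beside 43.5% of all genes) and 24 at 48 h (61.5%, beside 48.7%) had an AML1-ETO promoter peak. An ETO2-GLIS2 promoter peak was then at 19 (48.7%, beside 42.8%) and 18 (46.2%, beside 45.1%).

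Counted over the whole gene and the 20 kb around it, AML1-ETO peaks were found at 29 members at 12 h (74.4%, beside 77.6%) and at 31 at 48 h (79.5%, beside 80.3%). ETO2-GLIS2 peaks were found there at 27 members at 12 h (69.2%, beside 66.4%) and at 23 at 48 h (59.0%, beside 66.0%). These shares were near the background in each list. In these regions AML1-ETO had 137 distinct peaks at 12 h and 202 at 48 h, and ETO2-GLIS2 66 and 81. Peaks away from any annotated start made up 69 and 112 of the AML1-ETO peaks and 22 and 31 of the ETO2-GLIS2 peaks. These counts of peaks were not set beside all genes and can grow with the length of a list. They describe the regions only and are no result about these genes.

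**Figure D1:**
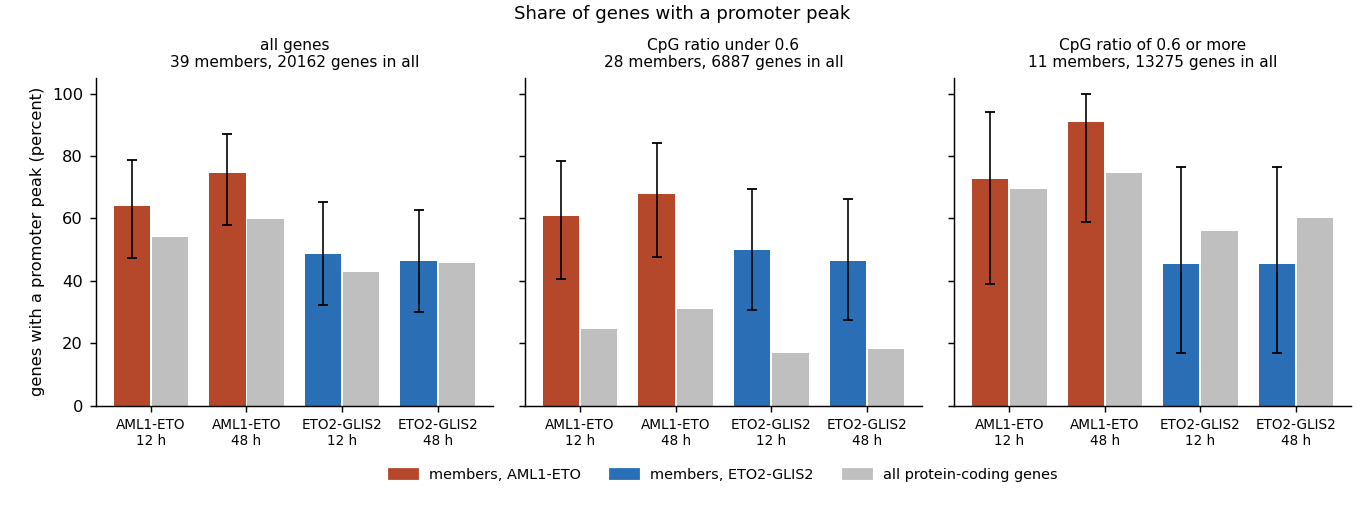
Share of genes with a promoter peak in each of the 4 lists, in percent (coloured bars, the 39 interferon-stimulated genes with exact 95% intervals; grey bars, all protein-coding genes), for all genes and for genes with a CpG ratio at the main start under 0.6 or of at least 0.6. In the CpG-poor panel the grey bars lie below the intervals of the members in all 4 lists, and 19 of 28 members had an AML1-ETO promoter peak at 48 h beside 31.1% of all CpG-poor genes.

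The starts of these genes differed from most starts in base composition. In the 1000 bp around the main start the ratio of observed to expected CpG had a median of 0.28 for the members and 0.72 for all protein-coding genes, and it reached 0.6 at 11 of 39 members (28.2%) beside 65.8% of all genes. Median GC was 53.5% against 61.3%. This split was chosen after the data had been seen. Among the 28 CpG-poor members AML1-ETO had a promoter peak at 17 at 12 h (60.7%, 40.6% to 78.5%, beside 24.6% of all CpG-poor genes) and at 19 at 48 h (67.9%, 47.6% to 84.1%, beside 31.1%). ETO2-GLIS2 had one at 14 of the 28 at 12 h (50%, 30.6% to 69.4%, beside 17.0%) and at 13 at 48 h (46.4%, 27.5% to 66.1%, beside 18.3%). The background lay below the interval in all 4 lists, and it did so too when the main start alone was counted, with 17 of 28 (60.7%, 40.6% to 78.5%) beside 21.4% for AML1-ETO at 48 h and 9 of 28 (32.1%, 15.9% to 52.4%) beside 12.1% for ETO2-GLIS2. The 11 CpG-rich members had AML1-ETO promoter peaks at 8 (72.7%, beside 69.3%) and 10 (90.9%, beside 74.6%), and ETO2-GLIS2 promoter peaks at 5 at either time (45.5%, beside 56.1% and 60.0%). Many CpG-poor genes are silent in any one cell type, and whether the level of transcription moved with these shares was not tested.

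**Figure D2:**
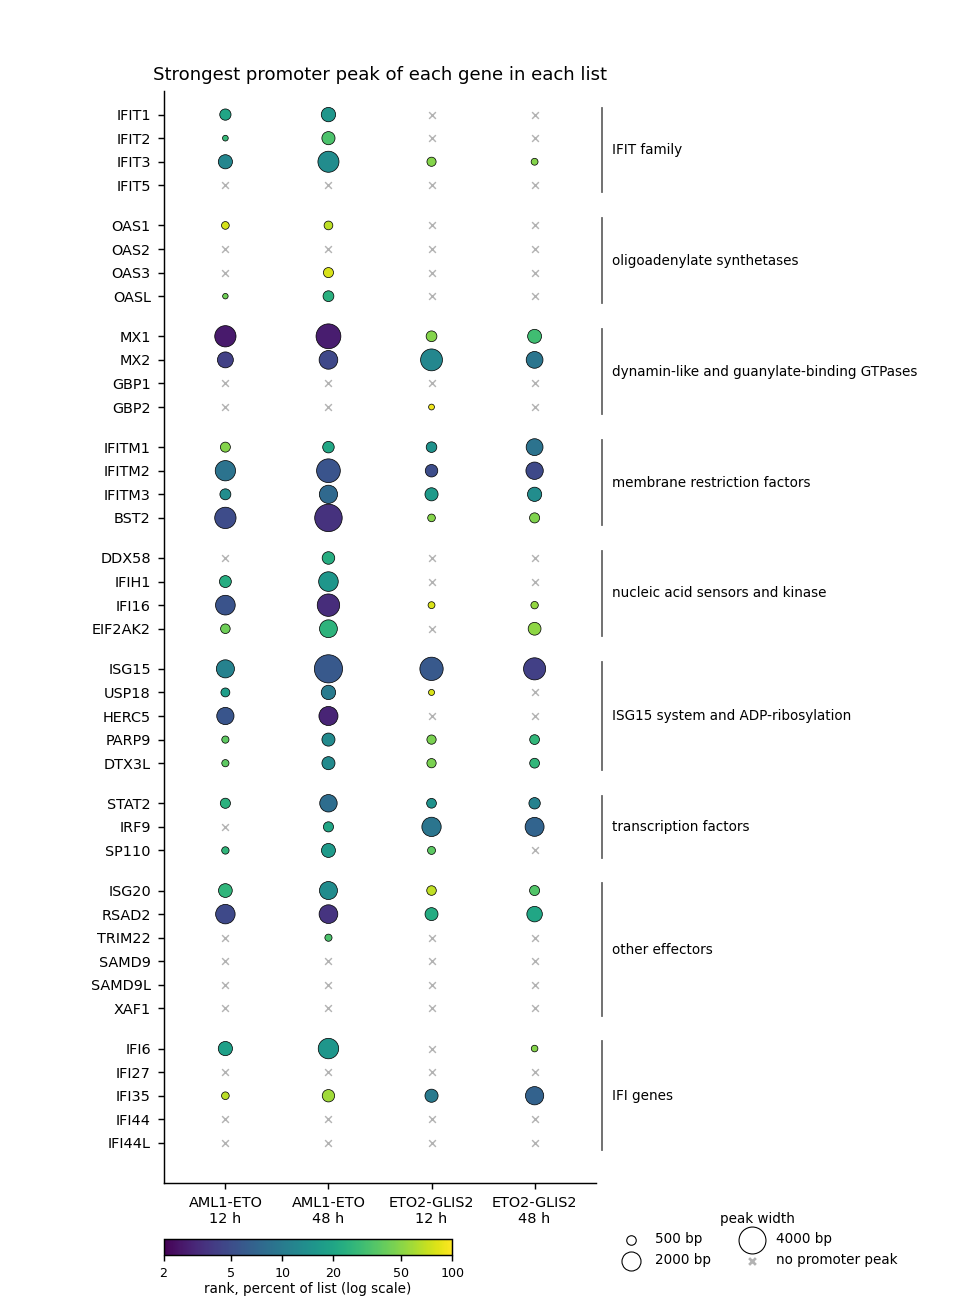
The strongest promoter peak of each of the 39 genes (rows, grouped by role) in each of the 4 lists (columns). Colour gives the rank in percent of the list on a log scale, dot area the peak width in bp, and a grey cross no promoter peak; 15 genes have dots in all 4 columns and 9 have none.

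The genes fell into a few patterns, shown in the dot plot of ranks and widths. A promoter peak in all 4 lists was present at 15 members (38.5%, beside 35.8% of all genes), namely IFIT3, MX1, MX2, IFITM1, IFITM2, IFITM3, BST2, IFI16, ISG15, PARP9, DTX3L, STAT2, ISG20, RSAD2 and IFI35. AML1-ETO alone, at both times, was present at 6 members (15.4%, beside 7.24%), IFIT1, IFIT2, OAS1, OASL, IFIH1 and HERC5. OAS3, DDX58 and TRIM22 had an AML1-ETO promoter peak at 48 h and no other. USP18 and SP110 lacked ETO2-GLIS2 at 48 h, EIF2AK2 and IFI6 lacked it at 12 h, IRF9 lacked AML1-ETO at 12 h, and GBP2 had ETO2-GLIS2 at 12 h alone. No promoter peak in any list was found at 9 members (23.1%, beside 36.7%), IFIT5, OAS2, GBP1, SAMD9, SAMD9L, XAF1, IFI27, IFI44 and IFI44L. All of these but XAF1 also had no peak in the gene or 20 kb around it, which made 8 members (20.5%, beside 16.7%).

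Strength is given below as the rank of the peak by its −log10 q in percent of its own list, so that a small percentage means a strong peak, and as its width. The members with the strongest promoter peaks at any start differed between the proteins. The 5 highest for AML1-ETO at 48 h were MX1, HERC5, IFI16, BST2 and RSAD2, and the 5 highest for ETO2-GLIS2 at 48 h were ISG15, IFITM2, IFI35, IRF9 and IFITM1. Some of these peaks lay far from the main start, MX1 (-5913 bp) and RSAD2 (-11922 bp) for AML1-ETO, ISG15 (-13186 bp) and IFITM1 (-2781 bp) for ETO2-GLIS2. At the main start ETO2-GLIS2 ranked at 21.9% at ISG15 and at 32.4% at IFITM1. With main starts alone IFITM2 was among the 5 highest of both proteins at 48 h, at 5.51% for AML1-ETO and 4.73% for ETO2-GLIS2. Over the members with a promoter peak the median rank for AML1-ETO was 19.9% of the list at 12 h (all genes 16.9%) and 13.2% at 48 h (all genes 10.1%). For ETO2-GLIS2 it was 37.5% (all genes 32.1%) and 23.3% (all genes 27.6%). The interval of the members held the median of all genes in each list, for example 7.53% to 20.7% for AML1-ETO at 48 h. The strongest 10% of the AML1-ETO list at 48 h held 10 of the 29 member promoters (34.5%, beside 49.4%), and that of the ETO2-GLIS2 list 6 of 18 (33.3%, beside 19.0%).

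The IFIT genes, whose products bind viral RNA, lie in a row on chromosome 10. At either time AML1-ETO had a promoter peak at 3 of the 4 and ETO2-GLIS2 at 1, and with 4 genes the shares of all genes lay well inside the intervals (19.4% to 99.4% and 0.631% to 80.6%). IFIT1 (chr10:91152303-91166244) had an AML1-ETO promoter peak of 702 bp at 19.9% of the list at 12 h and of 1139 bp at 15.6% at 48 h, with the summits 445 and 323 bp inside the gene. IFIT2 had an AML1-ETO peak of 181 bp at 27.4% and of 952 bp at 32.9%. Neither gene had an ETO2-GLIS2 promoter peak. In IFIT3 the strongest promoter peaks of both proteins lay over 5 kb into the gene, by the start of a shorter transcript, with the 48 h summits 4 bp apart. Its AML1-ETO peaks ranked at 12.0% and 13.2% and its ETO2-GLIS2 peaks at 48.3% and 48.2%. IFIT5, with 3 ISRE matches at its start and a CpG ratio of 0.90, had no peak in the gene or 20 kb around it in any list.

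The oligoadenylate synthetases OAS1, OAS2 and OAS3 make the activator of RNase L upon contact with double-stranded RNA. Together with the related OASL, these 4 genes had 0 ETO2-GLIS2 promoter peaks at either time (upper bound 60.2%, beside 42.8% and 45.7% of all genes). Their AML1-ETO peaks were low in the lists. OAS1 had one of 329 bp at 78.0% at 12 h and one of 421 bp at 67.8% at 48 h, which did not overlap each other. OAS3 had a 562 bp peak at 79.1% at 48 h alone, and OASL one of 166 bp at 42.5% and one of 646 bp at 24.1%. OAS2, between OAS3 and the end of the cluster on chromosome 12, had none. A promoter peak this low is close to the cutoff of the caller: the OAS1 and OAS3 peaks had −log10 q of 2.42 to 3.01, where the smallest in the AML1-ETO list at 48 h was 1.3.

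Among the GTPases, MX1 and MX2 trap viral nucleocapsids, and MX1 had the highest AML1-ETO promoter peak of the members at 48 h. The MX1 peak had a width of 2498 bp at 2.60% of the list at 12 h and of 3402 bp at 2.74% at 48 h, with fold enrichments of 23.3 and 30.6. ETO2-GLIS2 peaks overlapped it with widths of 639 and 1070 bp at 48.3% and 30.0%. These summits lay at -6089 to -5884 bp from the main start of MX1, by the start of longer transcripts, and no peak lay within 1 kb of the main start in any list. MX2 had AML1-ETO summits 333 and 272 bp inside its main start at 4.29% and 4.66%. At that start ETO2-GLIS2 peaks ranked at 79.3% and 68.3%, while its stronger peaks, at 12.3% and 9.08%, lay 7175 and 7162 bp into the gene by another start. The guanylate-binding proteins act on pathogen-containing vacuoles. GBP1 had no peak, and GBP2 had an ETO2-GLIS2 peak of 187 bp at 90.1% at 12 h by an internal start.

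The membrane restriction factors, which hold viruses at the cell surface or in endosomes, had promoter peaks of both proteins at both times at all 4 genes (35.8% of all genes did), of which 3 are IFITM genes of 1 locus. BST2 (tetherin, chr19:17513748-17516439) had AML1-ETO peaks of 2512 bp at 4.87% and 4174 bp at 3.47%, and ETO2-GLIS2 peaks of 324 bp at 48.1% and 564 bp at 46.9%. The 48 h summits were 46 bp apart, so the same position carried peaks that stood far apart in their lists. They were also within 1 kb of a start of MVB12A, a neighbouring gene. IFITM2 had the highest ETO2-GLIS2 promoter peak among the members at 12 h, at 4.94% with 860 bp and a fold enrichment of 33.9, and stood at 4.73% with 1664 bp at 48 h. Its AML1-ETO peaks were wider, 2275 and 3105 bp, and ranked at 8.83% and 5.51%. At IFITM1 the strongest ETO2-GLIS2 peaks ranked at 14.7% and 8.87% and those of AML1-ETO at 48.5% and 20.7%, but the 12 h summits were 3003 bp apart at different starts. At the main start of IFITM1 the order by percent of list turned, with ETO2-GLIS2 at 51.4% and 32.4% and AML1-ETO at 48.5% and 22.4%. IFITM3 had no peak within 1 kb of its main start, and its promoter peaks lay over 6 kb upstream by other starts, AML1-ETO at 13.5% and 7.53%, ETO2-GLIS2 at 16.5% and 13.4%. The IFITM genes are near-identical copies within 1 locus, and how reads that fit several copies were placed is not given in the sources used here, so the split between them is uncertain.

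Of the nucleic acid sensors, IFI16, which detects DNA, had AML1-ETO peaks of 2139 bp at 5.44% and 2776 bp at 3.29%. Its ETO2-GLIS2 promoter peaks were narrow, 261 bp at 80.7% and 304 bp at 53.1%, lay at different starts, and the one at 48 h was 6653 bp from the AML1-ETO summit. IFIH1 (MDA5) and DDX58 (RIG-I) detect viral RNA. IFIH1 had AML1-ETO peaks of 785 bp at 23% and 2119 bp at 15.6%, upstream of the start and within 1 kb of the start of GCA as well. DDX58 had an AML1-ETO peak of 870 bp at 22.8% at 48 h. Neither had an ETO2-GLIS2 promoter peak. EIF2AK2, the kinase PKR that stops translation, had AML1-ETO peaks of 508 bp at 42.1% and 1752 bp at 25.2% and an ETO2-GLIS2 peak of 908 bp at 51.7% at 48 h alone.

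HERC5 (chr4:89378270-89427314), the main ligase that attaches ISG15 to proteins, had the highest AML1-ETO promoter peak among the members without an ETO2-GLIS2 promoter peak. AML1-ETO had a peak of 1642 bp at 5.57% of the list at 12 h and of 2006 bp at 2.96% at 48 h (chr4:89377576-89379581), with fold enrichments of 19.7 and 29.9 and summits 190 and 221 bp inside the gene. No ETO2-GLIS2 peak overlapped them at either time, and the strongest ETO2-GLIS2 peaks counted for the gene lay over 66 kb from its start, at the promoter of HERC3. USP18, which removes ISG15 and dampens the interferon receptor, had AML1-ETO peaks of 439 bp at 17.6% and 1141 bp at 10.1%, and an ETO2-GLIS2 peak of 200 bp at 80.7% at 12 h alone. ISG15 itself, the ubiquitin-like modifier, had peaks of both proteins at its main start. There AML1-ETO ranked at 11.3% with 1805 bp and at 7.62% with 2329 bp, and ETO2-GLIS2 at 38.9% with 680 bp and at 21.9% with 866 bp. The stronger promoter peaks that the rule assigns to ISG15, up to 4.21% for ETO2-GLIS2 and with 4380 bp for AML1-ETO at 48 h, lay over 13 kb upstream at an alternative start that is also the promoter of HES4. PARP9 and DTX3L, which act together in ADP-ribosylation of chromatin, share 1 promoter, where 1 peak served both genes, AML1-ETO at 38.1% and 12.9% and ETO2-GLIS2 at 45.2% and 26.3%.

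Among the transcription factor genes ETO2-GLIS2 stood higher by percent of list at IRF9, and the others had no such order at both times. IRF9 (chr14:24630443-24637252), the DNA-binding part of ISGF3, had ETO2-GLIS2 peaks of 2057 bp at 9.20% and 1984 bp at 6.90%, with fold enrichments of 22.4 and 29.3. AML1-ETO had no promoter peak there at 12 h and one of 567 bp at 19.9% at 48 h, with the summits 22 bp apart. STAT2, its partner, had ETO2-GLIS2 peaks at 14.7% and 11.4% and AML1-ETO peaks at 24.3% and 8.01%. The order of the proteins by percent of list was thus not the same at both times. By rank number ETO2-GLIS2 stood before AML1-ETO at both, 4159 against 17197 at 12 h and 3437 against 8477 at 48 h. SP110, a nuclear body protein, had AML1-ETO peaks of 302 bp at 25.7% and 1080 bp at 16.6% and an ETO2-GLIS2 peak of 349 bp at 37.5% at 12 h alone.

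Of the other effectors, RSAD2 (viperin) makes a nucleotide that ends viral RNA synthesis. Its promoter peaks lay over 11 kb before the main start, within 1 kb of the start of CMPK2, with AML1-ETO at 4.74% and 3.58% (2094 and 1929 bp) and ETO2-GLIS2 at 22.1% and 20.3% (929 and 1326 bp). ISG20, an exonuclease, had AML1-ETO at 25.7% and 13.2% and ETO2-GLIS2 at 68.7% and 34.6%. TRIM22 had an AML1-ETO peak of 283 bp at 32.9% at 48 h alone. SAMD9 and SAMD9L, neighbours on chromosome 7 with CpG ratios of 0.11 and 0.17, had none. XAF1 had no promoter peak, but AML1-ETO peaks of 2108 and 2051 bp in the 20 kb upstream had summits at -2856 and -2730 bp from its main start and ranked at 9.36% and 6.46%, with ETO2-GLIS2 peaks of 228 and 234 bp at 52.8% and 61.7% at the same place.

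Of the genes with promoter peaks of both proteins, IFI35 had the largest difference in rank in favour of ETO2-GLIS2 at both times. IFI35 (chr17:41158757-41166473) had ETO2-GLIS2 promoter peaks of 950 bp at 9.89% and 1840 bp at 6.73%, with the summits 55 and 38 bp before the main start. AML1-ETO had a peak of 325 bp at 66.7% at 12 h, at an internal start, and of 846 bp at 57.4% at 48 h. IFI6, a mitochondrial protein that delays apoptosis, had AML1-ETO promoter peaks at 18.1% and 15.6%, and its strongest peaks lay about 12 kb past the main start and outside the gene, where AML1-ETO reached rank 383 of 105769 at 48 h with 6210 bp. IFI27, IFI44 and IFI44L had no peak in any list.

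To see whether the proteins met at the same promoters, overlap of at least 1 bp was counted. A gene was counted when any of its promoter peaks was overlapped. ETO2-GLIS2 peaks overlapped an AML1-ETO promoter peak at 17 of the 25 members that had one at 12 h (68.0%, 46.5% to 85.1%, beside 70.6% for all genes) and at 18 of 29 at 48 h (62.1%, 42.3% to 79.3%, beside 71.2%). In the other direction AML1-ETO peaks overlapped an ETO2-GLIS2 promoter peak at 16 of 19 members at 12 h (84.2%, 60.4% to 96.6%, beside 90.4%), all but those of GBP2, IRF9 and IFI35, and at 18 of 18 at 48 h (100%, 81.5% to 100%, beside 96.5%). With the strongest AML1-ETO promoter peak of each gene alone, a way of counting chosen after the data had been seen, 16 of 25 (64.0%, beside 67.3%) and 16 of 29 (55.2%, beside 69.1%) were overlapped. With the strongest ETO2-GLIS2 promoter peak alone the counts were again 16 of 19 (beside 89.1%) and 18 of 18 (beside 96.1%). The background lay within each interval. The ETO2-GLIS2 lists are the shorter ones, so a missing overlap says only that no peak reached the cutoff of the list.

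Where both proteins had a promoter peak at 48 h, the 2 strongest summits of a gene were a median of 190 bp apart (18 members, from 4 to 6890 bp), beside 201 bp for all genes, and 9 of the 18 were within 200 bp. AML1-ETO peaks were wider in 15 of 18, beside 92.1% of all genes with both peaks, with a median ratio of 1.82 beside 2.68. ETO2-GLIS2 stood higher in its own list at 5 of 18 (27.8%, beside 14.1% of all genes), IFITM1, IFITM2, ISG15, IRF9 and IFI35. The ISG15 peak in this count is the one at the promoter of HES4. Among the 13 members with peaks of both proteins at the main start at 48 h, ETO2-GLIS2 stood higher at 3 (23.1%, beside 13.0%), IFITM2, IRF9 and IFI35, and AML1-ETO stood higher at ISG15 and IFITM1. These orders are by percent of list. By rank number ETO2-GLIS2 stood before AML1-ETO at ISG15 (6580 against 8058) and IFITM1 (9745 against 23687) as well. At 12 h the median distance was 168 bp over 17 members and the median width ratio 1.08, beside 227 bp and 1.66. With peaks at the main start alone ETO2-GLIS2 stood higher at 2 of 12 members at 12 h (16.7%, beside 23.6%), IFITM2 and STAT2.

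**Figure D3:**
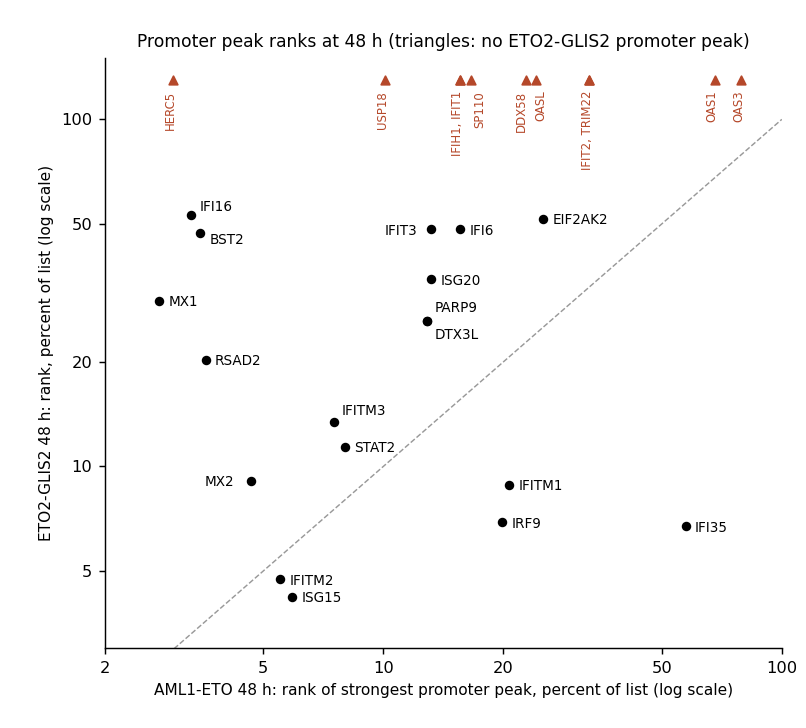
Rank of the strongest promoter peak at 48 h in percent of each list (log scales; AML1-ETO on the x axis, ETO2-GLIS2 on the y axis, small values are strong peaks). Points are the 18 genes with both peaks, the dashed line marks equal rank, and triangles along the top are the 11 genes with an AML1-ETO peak alone; IFI35, IRF9 and IFITM1 lie far below the line (at the main start alone IFITM1 would lie above it), and IFI16, BST2 and MX1 far above it.

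At 48 h the strongest AML1-ETO promoter peak of most members was wider than at 12 h. All 25 members with an AML1-ETO promoter peak at 12 h had one at 48 h (100%, beside 95.7% of all genes with one at 12 h). Members with one at both times were 64.1% of the 39, beside 51.7% of all protein-coding genes. OAS3, DDX58, IRF9 and TRIM22 had one at 48 h alone. The peak was wider at 48 h in 24 of 25, all but RSAD2, with a median of 702 bp at 12 h and 1786 bp at 48 h. The median ratio was 2.22 beside 1.81 for all genes, of which 92.8% were wider. At 4 of the 25, OAS1, IFITM1, ISG15 and IFI35, the strongest peaks of the 2 times did not overlap each other. Among the other 21 (84.0%, beside 90.9% of all genes) 20 were wider, beside 95.1% of all such genes, with a median ratio of 2.22 beside 1.82. ETO2-GLIS2 had a promoter peak at both times at 16 of the 39 members, beside 38.6% of all genes. Of the members with one at 12 h, 84.2% had one at 48 h, beside 90.3% of all genes. GBP2, USP18 and SP110 had one at 12 h alone, and EIF2AK2 and IFI6 at 48 h alone. The ETO2-GLIS2 peak was wider at 48 h in 12 of 16 (75.0%, beside 65.7% of all genes), all but IFIT3, MX2, ISG15 and IRF9. The median ratio was 1.17 for members and 1.17 for all genes. For 15 of the 16, all but IFI16, the strongest peaks of the 2 times overlapped (93.8%, beside 89.6%). All 16 stood higher in percent of their list at 48 h, beside 71.3% of all genes, and for AML1-ETO 21 of 25 did (84.0%, beside 91.2%). Both lists were longer at 48 h, so a peak could fall in rank number and still count as higher. For example, the AML1-ETO peak of IFIT1 had rank 14116 at 12 h and 16482 at 48 h. Time and library cannot be told apart with 1 library at each time.

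**Figure D4:**
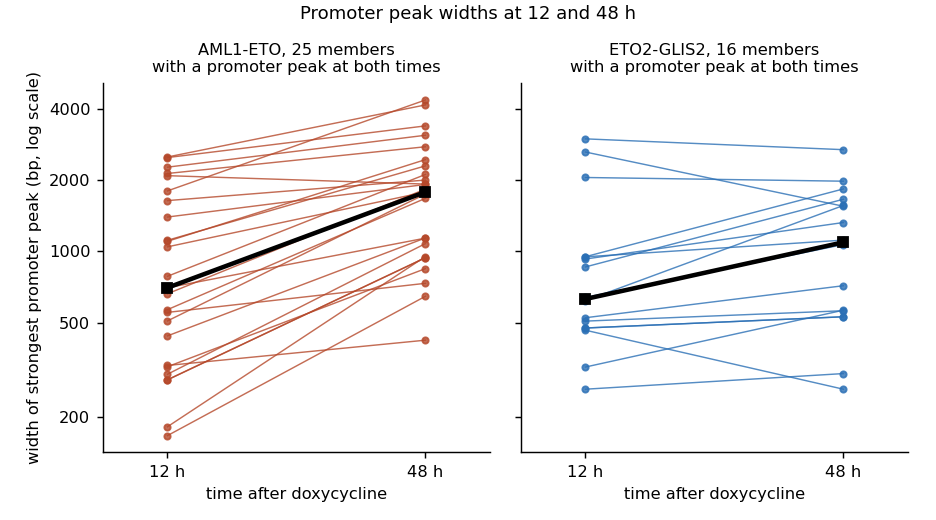
Width in bp (log scale) of the strongest promoter peak at 12 and 48 h for the members with a promoter peak at both times, AML1-ETO on the left and ETO2-GLIS2 on the right. Thin lines are genes and the black line joins the medians, 702 and 1786 bp for AML1-ETO and 629 and 1094 bp for ETO2-GLIS2.

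To relate the peaks to the letters shown above, the 200 bp at the strongest promoter summit were searched on both strands for 5 patterns. An ISRE was in the window of 3 of 25 members for AML1-ETO at 12 h (12.0%, 2.55% to 31.2%, beside 1.10% of all genes with a promoter peak) and of 4 of 29 at 48 h (13.8%, 3.89% to 31.7%, beside 1.26%). For ETO2-GLIS2 it was in 1 of 19 (5.26%, beside 1.13%) and 0 of 18 (upper bound 18.5%, beside 0.922%). The Runt motif, which AML1 binds, was searched as TGTGGT and, with C in the middle, as TGCGGT. It was in 8 of 25 AML1-ETO windows at 12 h (32.0%, beside 24.5%) and in 4 of 29 at 48 h (13.8%, beside 23%), and so it was no more common at the member summits than at others at 48 h. The core of the ETS family, GGAA, was in 24 of 29 AML1-ETO windows at 48 h (82.8%, beside 85.1%), and some ISRE matches also hold it, so those counts overlap. An E-box, searched as CAGCTG, was in 5 of these 29 windows (17.2%, beside 15.7%). The GLIS pattern, searched as TGGGGGG, was in 0 of the 18 ETO2-GLIS2 windows at 48 h (upper bound 18.5%, beside 9.96%).

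In the start regions themselves the Runt motif was present at 5 of 39 members (12.8%, beside 18.9% of all genes), the ETS core at 39 of 39 (100%, beside 94.7%), the GLIS pattern at 2 (5.13%, beside 8.60%) and the E-box at 12 (30.8%, beside 17.6%). A main-start AML1-ETO peak at 48 h was present at 15 of the 24 members with an ISRE there (62.5%) and at 11 of the 15 without (73.3%). For ETO2-GLIS2 at 48 h it was 8 of 24 (33.3%) and 5 of 15 (33.3%). Over all protein-coding genes, 45.0% of the 669 with an ISRE at the start and 52.4% of the others had a main-start AML1-ETO peak at 48 h, and among CpG-poor genes 23.2% and 21.3%. For ETO2-GLIS2 at 48 h the shares over all genes were 29.4% and 41.1%, and among CpG-poor genes 13.6% and 12.0%. Summits seldom lay on the ISRE. The closest were those of ETO2-GLIS2 at ISG15, 11 to 30 bp from its matches at the start at 12 and 48 h, where the AML1-ETO summits were 163 to 204 bp away, and that of AML1-ETO at EIF2AK2, 31 bp away at 48 h. At HERC5 the AML1-ETO summits were 259 to 341 bp from the matches printed above, on the other side of the start.

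**Figure D5:**
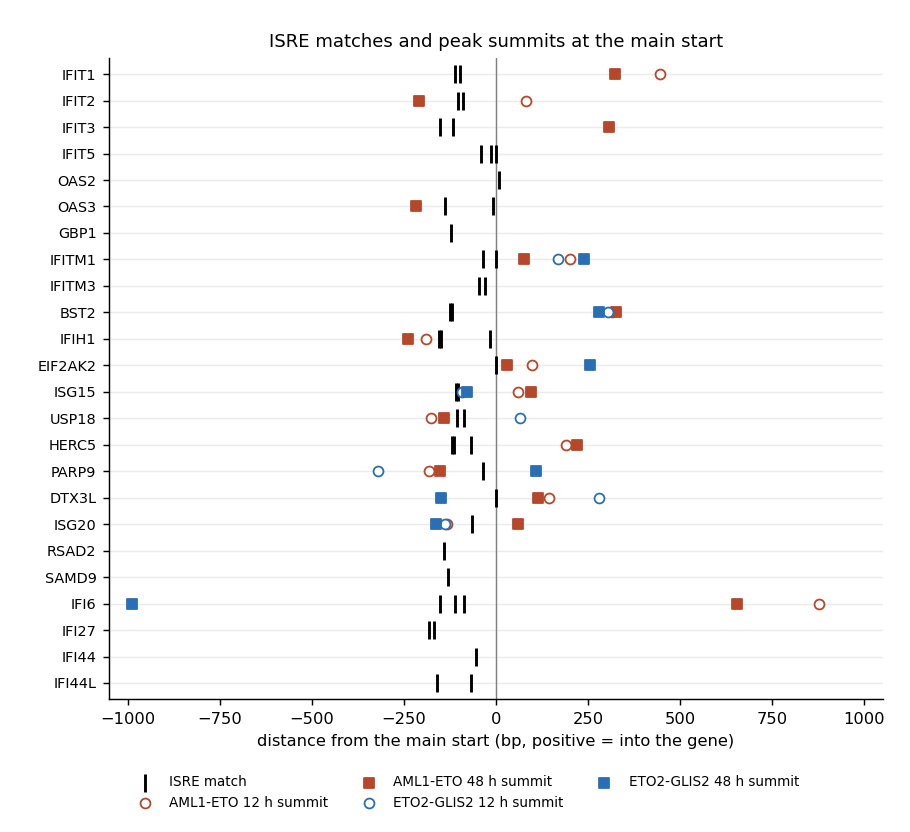
Positions of ISRE matches (black ticks) and of peak summits within 1 kb of the main start (circles 12 h, squares 48 h; red AML1-ETO, blue ETO2-GLIS2) for the 24 genes with an ISRE in the start region, as the distance in bp from the main start, positive into the gene. At ISG15 the ETO2-GLIS2 summits lie within 30 bp of the matches, at HERC5 the AML1-ETO summits lie 259 to 341 bp from them, and 7 of the genes have no promoter peak. IFITM3 and RSAD2 also show no summit, as their promoter peaks lie at other starts.

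For the rest of the pathway, 47 genes in 3 lists were counted in the same way, against 54.0% and 59.8% of all protein-coding genes for AML1-ETO at 12 and 48 h and 42.8% and 45.7% for ETO2-GLIS2. Of 11 genes of the receptor and JAK-STAT signalling, such as IFNAR1, JAK1 and TYK2, AML1-ETO had a promoter peak at 11 at 12 h and 10 at 48 h, and ETO2-GLIS2 at 11 and 11. Of 13 genes that sense infection and induce interferon, such as MAVS, TBK1 and IRF7, AML1-ETO had one at 9 and 9 and ETO2-GLIS2 at 8 and 10. Of 23 further interferon-inducible genes AML1-ETO had one at 17 and 21, and ETO2-GLIS2 at 17 and 18. Together these were 40 of 47 for AML1-ETO at 48 h (85.1%, 71.7% to 93.8%, beside 59.8%) and 39 of 47 for ETO2-GLIS2 (83.0%, 69.2% to 92.4%, beside 45.7%). The 39 members stood at 74.4% and 46.2% (30.1% to 62.8% for ETO2-GLIS2), so the other pathway genes had the higher share in both lists. The intervals cover counting error over the genes of 1 library. The 47 genes were listed with earlier results of these data known, and the difference between the sets was not tested. The CpG ratio at the main start reached 0.6 at 30 of the 47 (63.8%), beside 28.2% of the members, and its part in this difference was not tested.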

How the data were processed

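HA ChIP-seq of doxycycline-induced U937 clones gave 4 peak lists, 1 library each, and the 4 inputs have no list of their own. Per the submitters' processing notes the authors used Bowtie2 2.2.9, SAMtools 1.7, MACS2 2.1.1.20160309 and deepTools with hg19. MACS2 settings and removal of duplicate reads are not given in the sources used here. In the lists the authors deposited, the score is a whole number made from the −log10 q, fold enrichment is a linear ratio of ChIP over local background, and −log10 p and −log10 q values come from the same caller. The smallest deposited −log10 q was 1.30 to 1.31. These values grow with depth. The study gives reads per library, but the lists hold no read counts to scale by, so peaks were only ranked within a list, by −log10 q, and equal values shared the better rank.

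Autosomal, X and Y peaks were joined to GENCODE release 44 lifted to GRCh37 (DDX58 is RIGI there). A promoter was 1 kb to either side of any transcript start, and flanks were 20 kb. When a gene had several promoter peaks, the strongest was used. Sequence came from GRCh37, and some sequences are not reported here. Groups were taken from the sample titles. Fuller values were given for 21 members, those among the 5 highest promoter peaks of a list or the 5 widest at 48 h, or with a promoter peak of 1 protein alone at 48 h. Some of their ranks, widths and summit distances are not reported here. Members and lists were chosen with earlier results of these data known. Python 3.11.15, pandas 2.3.3, numpy 2.4.6, scipy 1.17.1 and pysam 0.24.0 were used. Overlaps were checked against bedtools 2.31.1, and assignment and motif counting were tested on simulated data. No p-value was computed. The alternatives were stricter −log10 q, equal list lengths, other starts and windows, stricter overlap and joined loci. Those restricted to canonical starts, to CpG-poor genes, to RefSeq start regions and to the strongest peak of a gene were chosen after seeing the data.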

Additional observations from a re-analysis of the deposited data

Results flagged for a closer look

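From 12 to 48 h the number of members with a promoter peak moved in opposite directions for the proteins, by 4 for AML1-ETO (25 to 29) and by -1 for ETO2-GLIS2 (19 to 18). Over all protein-coding genes both rose, from 10897 to 12048 and from 8622 to 9221. The members with a peak in the gene or 20 kb around it moved by 2 for AML1-ETO (29 to 31) and by -4 for ETO2-GLIS2 (27 to 23). The ETO2-GLIS2 change was made of 5 members with a peak at 12 h alone, OAS1, OAS3, GBP2, IFIH1 and USP18, and 1 at 48 h alone, OASL. Over all genes the count there rose for AML1-ETO, from 15645 to 16187, and fell slightly for ETO2-GLIS2, from 13380 to 13309. With 1 library per protein and time these differences were not tested.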

How the results depend on the processing

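Under the alternatives 119 values stayed within the counting interval or within 1.5 times the value as reported, and 19 did not. The excess of the members' promoter share over all genes, 10.1, 14.6, 5.95 and 0.419 percentage points (AML1-ETO 12 and 48 h, ETO2-GLIS2 12 and 48 h), became 36.1, 36.7, 33.0 and 28.2 points among CpG-poor genes. It turned negative with the gene 5′ end alone in 3 lists (-4.06 for AML1-ETO 12 h, -4.56 and -2.28 for ETO2-GLIS2) and with the canonical start alone for ETO2-GLIS2 (-1.87 and -7.41). For ETO2-GLIS2 at 48 h it was also negative with joined loci (-4.07), a promoter of 3 kb (-1.05) and any part of the peak within 1 kb (-0.667). All of these values lay within the counting interval. At a −log10 q of at least 10 the excess in the gene or 20 kb around it for ETO2-GLIS2 at 12 h went from 2.87 to -17.7 points, the shared AML1-ETO promoters at 12 h from 17 to 7, and ETO2-GLIS2 promoters at both times from 16 to 9, with fewer peaks in each list. With the gene 5′ end alone the shared promoters at 12 h were 9 and AML1-ETO promoters at both times 15 instead of 25. With 50% of the AML1-ETO peak covered, shared promoters were 9 at 12 h and 11 at 48 h instead of 18. The median AML1-ETO rank rose from 19.9% to 37.6%, 44.4% and 38.8% at 12 h, and from 13.2% to 31.0%, 48.0% and 48.1% at 48 h, with −log10 q of at least 5, at least 10 and equal list lengths, since percent of a shortened list is larger by construction. An ISRE at AML1-ETO 12 h summits went from 12.0% to 32.0% with 400 bp windows, and at ETO2-GLIS2 12 h summits from 5.26% to 0 with 100 bp windows. RefSeq start regions (GRCh38.p14) matched 31 members, 64.5% of them with an ISRE, beside 3.19%. No paired analysis was possible because each group had 1 library. A gene without a peak cannot be told apart from one with binding under the cutoff of its list.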
